A study of Mus musculus with 8 samples.

Results

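The TGF-beta and BMP signalling genes of mouse N18TG2 neuroblastoma cells were followed across a parental line and a derived clone, each with and without retinoic acid (RA). The set comprises 43 genes chosen by name: ligands, receptors, proteins that hold or release latent ligand, extracellular antagonists, Smads with their co-repressors, and target genes. A gene was taken to be on the array where a probe's RefSeq accession belonged to it. All 43 genes were found, through 57 of the 55681 probes, and they stand among 20145 named genes in all. For 14 genes there were 2 probes, and the brighter one represented the gene.

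The arrays were 8 one-colour Agilent mouse arrays, with 2 arrays in each of 4 groups. The 2/4 clone, labelled as expressing ChAT (choline acetyltransferase, which synthesises acetylcholine), was profiled with 1 µM all-trans RA and untreated. Parental N18TG2 cells were profiled with 1 µM RA and untreated in the same way. N18TG2 is a mouse neuroblastoma line, a tumour of the sympathetic nervous lineage, and RA is a vitamin A derivative used to make such cells differentiate. Per the labels, both lines grew in 10% fetal bovine serum, the clone was kept under G418 at 200 µg/mL, and RA dissolved in dimethyl sulphoxide was given in medium with 1% serum. How long RA was given and what medium the untreated cells had are not stated, so a difference in serum cannot be told apart from RA, and G418 and the history of 1 clone cannot be told apart from the line. Since separate cultures are not stated for the replicate arrays, the p-values below measure only the spread between these samples, which may be technical. In these bulk samples fewer cells of a type and less RNA per cell cannot be told apart.

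TGF-beta, activin and BMP ligands are secreted dimers that bring together type II and type I serine/threonine kinase receptors at the cell surface. TGF-beta and activin receptors phosphorylate Smad2 and Smad3, BMP receptors phosphorylate Smad1, Smad5 and Smad9, and both sets join Smad4 in the nucleus, where Id genes are well-known BMP targets. Smad6 and Smad7 inhibit the pathway, latent TGF-beta is held in the matrix by binding proteins, and antagonists such as noggin and follistatin trap BMPs and activins. BMPs from the dorsal aorta help to specify the sympathetic neurons from which neuroblastoma derives.

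Of the 43 genes, 35 had a probe well above background on at least 2 of the 8 arrays and were tested, and 29 were above background on all 8. Values are log2 of the background-subtracted intensity minus the array's 75th percentile, called scaled log2 levels here, and they compare arrays for a probe, not genes with each other. The 75th percentile of intensity lay between 265 and 1264 units, and the share of spots well above background was 72.1% on clone RA replicate 1 against 48.6% to 63.3% on the other arrays. Clone RA replicate 1 was also the only array that the scanner software marked for evaluation, so the calls of Id4 and Bmpr1b, which rest on dim clone signals, are given below with and without it. All arrays lay on 1 slide: row 1 held the untreated clone and the RA-treated parental arrays, row 2 the RA-treated clone and the untreated parental arrays. Slide row therefore cannot be told apart from RA within a line or from the line within a treatment, and it cancels only in the averages over lines or treatments. The interaction of line and RA is the same contrast as row 2 minus row 1, so the 2 cannot be told apart. All 13 markers of adrenergic neuroblasts were above background on all 8 arrays, but their levels differed between the lines. With RA, 6 of the 13 were called higher and 2 lower in the clone (limma adjusted p under 0.05), against 12.9% and 10.2% of all features. In untreated cells 0 were called higher and 2 lower, against 6.13% and 3.69%. The extraction text in the labels names hippocampus, and of 9 hippocampal neuron markers 2 were above background on every array and 4, Fezf2, Neurod2, Neurod6 and Prox1, on none. Of 9 fibroblast markers, 6 were above background on both arrays of the clone with RA and 5 in the untreated clone, against 3 in parental cells with RA and 4 in untreated parental cells, and Lum, Postn and Thy1 were above on none. Of 9 vessel and microglial markers the numbers were 7 and 6 in the clone with RA and untreated, against 4 and 4 in parental cells (Cdh5 and Cx3cr1 on none), and of 9 Schwann and glial markers 5 and 6, against 4 and 3 (Olig2 on none). The part of these cell types in the line differences was not tested. Chat itself read 1.10 and -2.58 in the clone with RA, -3.73 and -2.71 in the untreated clone, -3.22 and -5.06 in parental cells with RA, and -2.63 and -4.57 in untreated parental cells, and was called in neither line comparison (limma adjusted p = 0.0996 with RA and 0.897 untreated). Lmna, which encodes lamin A/C and is named in the study's title, read 3.53 and 3.50 in the clone with RA and 4.86 and 5.17 in the untreated clone, against 3.36 and 3.42 in parental cells with RA and 3.80 and 3.68 in untreated parental cells. It was called higher in the untreated clone than in untreated parental cells (1.27 ± 0.26, adjusted p = 0.0255) and lower with RA in the clone (-1.50 ± 0.26, 0.0307).

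**Figure D1:**
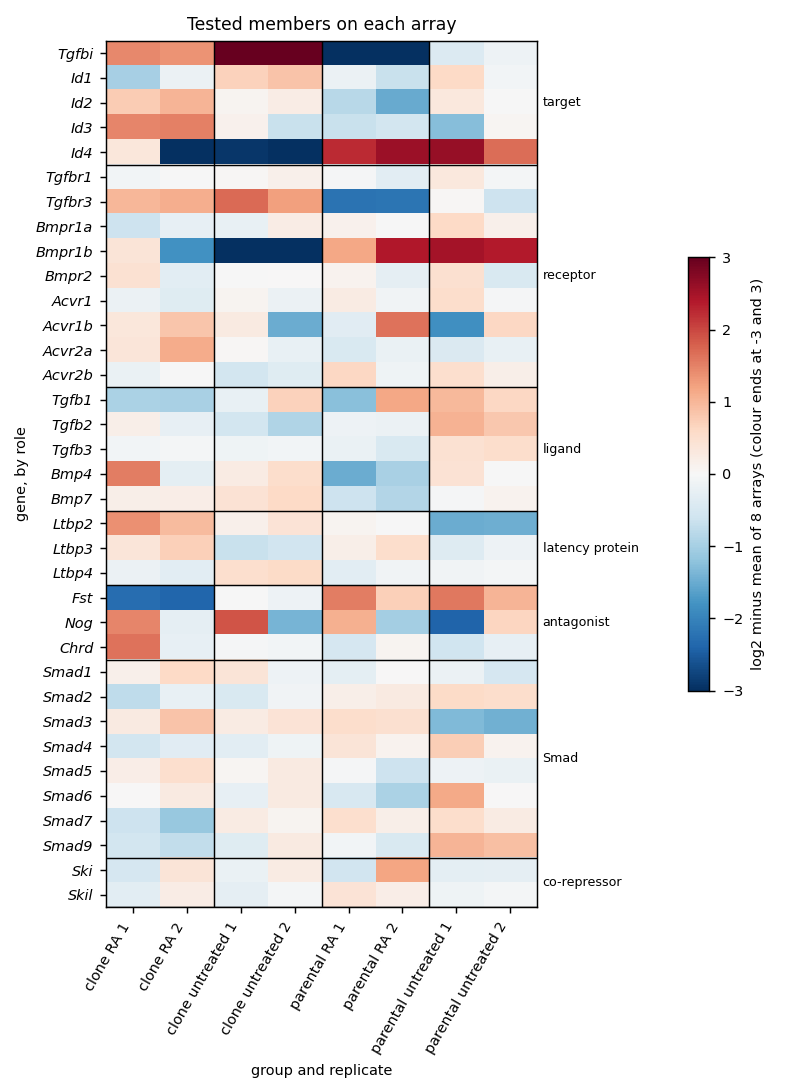
Scaled log2 level of the 35 tested genes on each of the 8 arrays, minus the gene's mean over the arrays, grouped by role from top to bottom (red above the mean, blue below, colour ending at -3 and 3). Tgfbi is high on the clone arrays and lowest on the RA-treated parental arrays, while Id4 and Bmpr1b are high on the parental arrays.

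The first comparison asks which pathway genes differed between the ChAT-expressing clone and its parental line. In untreated cells the clone had higher Tgfbi, Tgfbr3, Ltbp2 and Smad3 and lower Bmpr1b, Id4 and Tgfb2 than the parental line. These 7 of 35 tested genes make 20% (4 higher, 3 lower), where 9.82% of all 26262 tested features were called at a limma adjusted p under 0.05 (6.13% higher, 3.69% lower). The median difference of the pathway genes was -0.01 on the log2 scale, against 0.11 for all features. With RA the clone had higher Tgfbi, Tgfbr3, Ltbp2, Id2, Id3 and Bmp7 and lower Fst, Bmpr1b, Id4 and Smad7 than the RA-treated parental line. These 10 genes make 28.6% of the 35 (6 higher, 4 lower), against 23.2% of all features (12.9% higher, 10.2% lower), and the medians were 0.12 and 0.11. Tgfbi, Tgfbr3, Ltbp2, Bmpr1b and Id4 were called in the same direction with and without RA. Averaged over both treatments, which balances slide row, 13 of 35 genes were called, 7 higher and 6 lower in the clone, or 37.1% against 27.7% of all features. Of these 13, Tgfbi, Tgfbr3, Bmpr1b, Fst, Id4 and Ltbp2 were still called without each array in turn. Ltbp2 lost its average call under another background correction, as given below. The average calls of Bmp7, Id2, Id3, Smad2, Smad3, Smad7 and Tgfb2 were each lost without 3 to 7 of the 8 arrays, with a highest adjusted p of 0.0663 to 0.139 per gene.

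**Figure D2:**
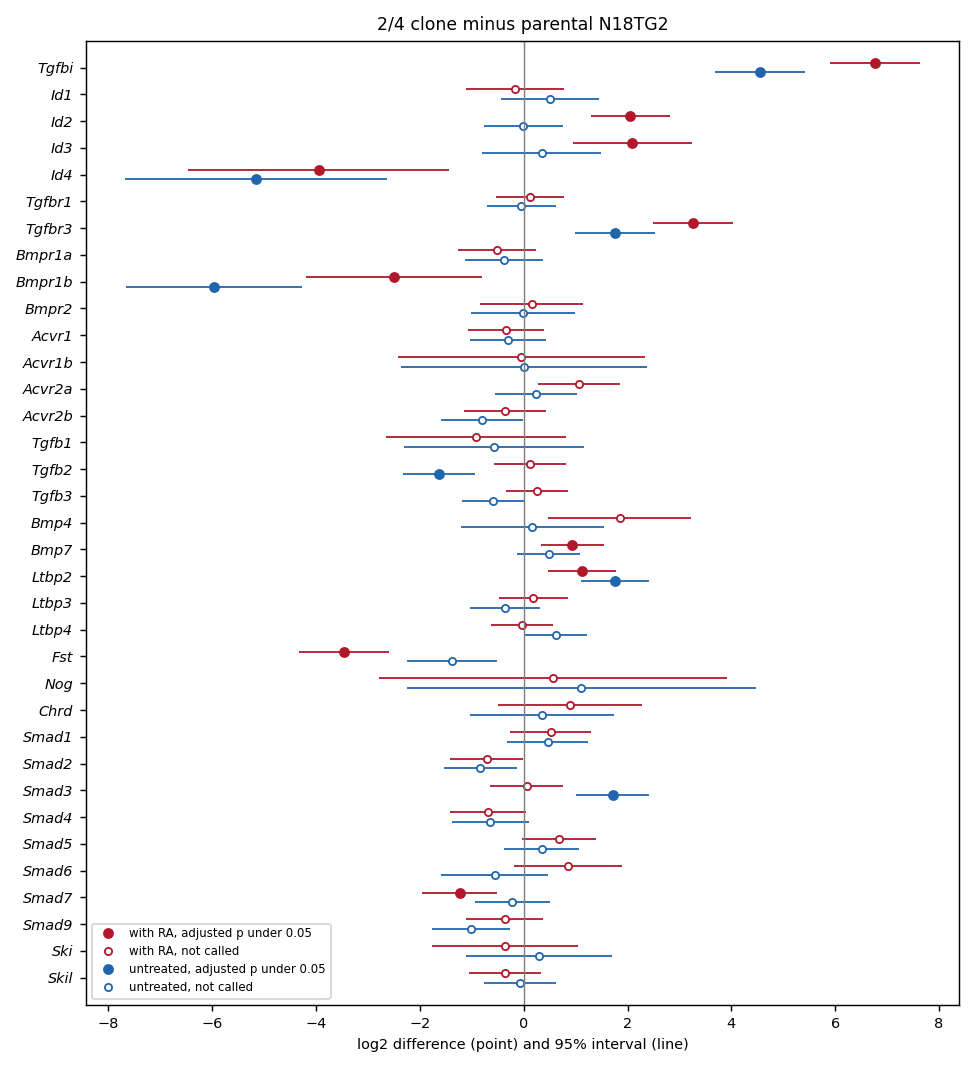
Clone minus parental log2 difference for each of the 35 tested genes (point) with its 95% interval from the fit (line), with RA in red and untreated in blue, and filled points at an adjusted p under 0.05. Tgfbi lies farthest to the right in both treatments, at 6.76 with RA and 4.55 untreated, and Bmpr1b and Id4 lie farthest to the left in untreated cells.

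RA was set against untreated cells within each line. In the clone 2 of 35 genes were called with RA, and Tgfbi and Fst both fell (5.71%, against 4.63% of all features, and 2.05% called lower). In the parental line 2 of 35 genes were also called, as Smad3 rose and Tgfbi fell (5.71%, against 1.12% of all features, with 0.529% higher and 0.59% lower). The median RA difference was 0.12 in the clone and -0.17 in parental cells for pathway genes, and 0.02 in both for all features. All 4 of these calls were lost when at least 1 array was left out, as given for each gene below. Averaged over both lines, 6 of 35 genes were called (17.1%, against 5.83% of all features, with 3.13% higher and 2.7% lower). Ltbp2, Ltbp3 and Smad3 were higher and Fst, Tgfbi and Tgfbr3 lower with RA. Of these average calls Tgfbi was lost only without untreated clone replicate 2 (adjusted p = 0.0563), and the other 5 were lost without 6 to 8 of the 8 arrays.

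**Figure D3:**
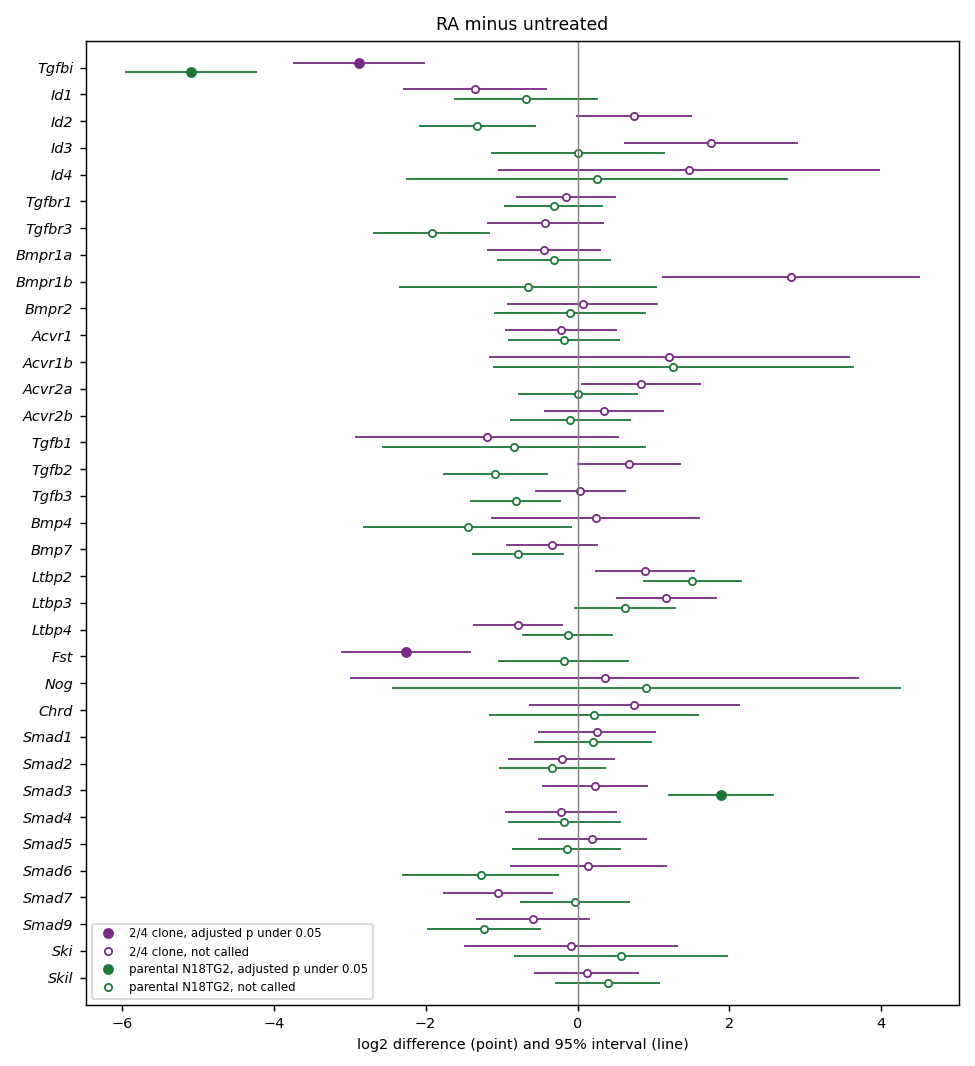
RA minus untreated log2 difference for each of the 35 tested genes (point) with its 95% interval (line), for the clone (purple) and the parental line (green), with filled points at an adjusted p under 0.05. Tgfbi is filled in both lines, Fst in the clone and Smad3 in the parental line, and no other point is filled.

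The target genes of the set are Tgfbi, Id1, Id2, Id3 and Id4. Promoters are shown for all of these but Id1, as 300 bases that span the annotated start (RefSeq, GRCm38.p6). Capitals mark CAGAC or its complement GTCTG (a Smad3 and Smad4 half-site), GGCGCC (a GC-rich Smad motif) and AGGTCA or its complement TGACCT (a nuclear receptor half-site), all searched on both strands. They lie at chr13:56609336-56609635 (+ strand) for Tgfbi, chr12:25096043-25096342 (- strand) for Id2, chr4:136143572-136143871 (+ strand) for Id3 and chr13:48260866-48261165 (+ strand) for Id4.
Tgfbi: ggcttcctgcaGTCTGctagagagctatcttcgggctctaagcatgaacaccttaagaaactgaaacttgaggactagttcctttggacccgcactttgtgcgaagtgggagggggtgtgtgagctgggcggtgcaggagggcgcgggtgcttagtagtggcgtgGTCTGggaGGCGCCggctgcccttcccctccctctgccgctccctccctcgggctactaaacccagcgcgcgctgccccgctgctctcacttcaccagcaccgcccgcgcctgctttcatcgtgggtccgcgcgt
Id2: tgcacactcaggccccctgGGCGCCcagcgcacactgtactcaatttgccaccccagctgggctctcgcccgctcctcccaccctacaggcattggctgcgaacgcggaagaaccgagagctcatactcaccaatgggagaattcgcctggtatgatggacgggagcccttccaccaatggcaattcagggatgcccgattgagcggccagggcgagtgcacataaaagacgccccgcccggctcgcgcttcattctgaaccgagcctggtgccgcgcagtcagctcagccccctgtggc
Id3: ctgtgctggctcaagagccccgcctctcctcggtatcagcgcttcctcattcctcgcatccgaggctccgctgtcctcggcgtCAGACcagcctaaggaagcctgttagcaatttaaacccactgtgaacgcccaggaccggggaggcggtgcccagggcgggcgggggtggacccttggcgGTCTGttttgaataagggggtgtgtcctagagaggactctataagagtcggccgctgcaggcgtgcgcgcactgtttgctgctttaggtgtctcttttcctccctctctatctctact
Id4: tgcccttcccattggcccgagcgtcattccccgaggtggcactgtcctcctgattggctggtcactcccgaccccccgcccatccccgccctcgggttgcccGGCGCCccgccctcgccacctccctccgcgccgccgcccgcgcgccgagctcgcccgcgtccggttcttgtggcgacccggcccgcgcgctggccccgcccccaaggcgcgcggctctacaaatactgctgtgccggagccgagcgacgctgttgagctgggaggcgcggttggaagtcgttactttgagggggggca

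The Tgfbi promoter held 2 CAGAC matches and 1 GGCGCC match, and Id3 held 2 CAGAC matches, while Id2 and Id4 each held 1 GGCGCC match. None of the 4 windows held AGGTCA. Of 32851 promoters of 300 bases, 49.6% held CAGAC, 11.9% GGCGCC and 16.3% AGGTCA. Among the 32 genes of the pathway set with a promoter in the table, 16 held CAGAC, 13 GGCGCC and 2 AGGTCA. The palindrome GTCTAGAC was found in 0.213% of all promoters and in 1 of these 32 genes. A direct repeat of AGGTCA spaced by 5 bases was found in 0.00913% and in 0 of 32. A gene counted if any of its promoters, of whatever length, held the motif. The percentages count single promoters of 300 bases, so counts and percentages are not like for like. The 4 windows were 63.3% (Tgfbi), 63.3% (Id2), 60% (Id3) and 73.3% (Id4) G and C. A match in the letters is a description of the window and not a binding site.

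Tgfbi encodes a secreted matrix protein first found as a gene that TGF-beta induces. Its scaled log2 level was 2.27 and 2.17 in the clone with RA and 5.03 and 5.16 in the untreated clone, against -5.03 and -4.05 in parental cells with RA and 0.42 and 0.67 in untreated parental cells. Every clone array was above every parental array, and within each line both RA arrays were below both untreated arrays. The clone exceeded the parental line by 6.76 ± 0.37 with RA (log2, SE, n = 2 arrays per group, 108-fold, limma adjusted p = 0.000118) and by 4.55 ± 0.37 untreated (23.4-fold, adjusted p = 0.000632). Both line calls held without any 1 array, with differences of 6.27 to 7.25 and 4.42 to 4.68. With normexp background correction (a model of signal plus background) the RA line difference was 5.01 and RA minus untreated in the parental line was -3.42, both still called (adjusted p = 9.5e-05 and 0.0183). Tgfbi was lower with RA in both lines. The difference was -2.88 ± 0.37 in the clone (7.34-fold, adjusted p = 0.0188) and -5.08 ± 0.37 in the parental line (33.9-fold, adjusted p = 0.00788). The RA call in the clone was lost without either untreated clone array (adjusted p = 0.126 and 0.165), and that in the parental line without any 1 of the 4 parental arrays (0.0538 to 0.104). The interaction, which is also the difference between slide rows, was 2.21 ± 0.52 and was not called (adjusted p = 0.136).

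Id proteins lack a DNA-binding domain and hold basic helix-loop-helix factors in inactive dimers. Id2 read 0.61 and 0.87 in the clone with RA and -0.08 and 0.06 in the untreated clone, against -0.98 and -1.66 in parental cells with RA and 0.16 and -0.16 in untreated parental cells. With RA the lines did not overlap and untreated they did. The clone was higher by 2.06 ± 0.32 with RA (4.16-fold, adjusted p = 0.0053), a call that held without any 1 array (1.72 to 2.39), while the untreated difference was -0.01 ± 0.32. RA minus untreated was 0.74 ± 0.32 in the clone (adjusted p = 0.244) and -1.32 ± 0.32 in the parental line (adjusted p = 0.119), and neither was called. Within the left and right side of the slide, each of which held 1 array of every group, the RA line difference of Id2 was 1.59 and 2.52.

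Id3 stood out in the clone with RA. It read 1.18 and 1.24 there and -0.15 and -0.94 in the untreated clone, against -0.94 and -0.82 in parental cells with RA and -1.56 and -0.22 in untreated parental cells. Both RA-treated clone arrays lay above all others, and the other 3 groups overlapped in part. The clone was higher with RA by 2.09 ± 0.48 (4.26-fold, adjusted p = 0.0224), which was lost without either RA-treated parental array (adjusted p = 0.0953 and 0.0867). Within the clone RA minus untreated was 1.75 ± 0.48 and was not called (adjusted p = 0.0927).

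Id4 was the target gene lower in the clone. It read -4.54 and -8.29 in the clone with RA and -7.78 and -7.97 in the untreated clone, against -2.62 and -2.31 in parental cells with RA and -2.26 and -3.18 in untreated parental cells. It was well above background on all 4 parental arrays and on 1 clone array, clone RA replicate 1. In untreated cells it was 17.7-fold lower in the clone when the clone was set at the lowest signals above background. That fold is on the background-subtracted scale and is not a lower bound. The fitted difference in untreated cells was -5.15 ± 1.06 (adjusted p = 0.0266). With RA the fitted difference was -3.95 ± 1.06 (adjusted p = 0.0379), -5.82 without clone RA replicate 1 (adjusted p = 0.0003) and -2.07 without clone RA replicate 2 (adjusted p = 0.0158). Within the sides of the slide it was -1.91 and -5.98. The untreated call was lost without any 1 untreated array or either RA-treated parental array (adjusted p = 0.0627 to 0.155). The RA call was lost without any 1 array outside the RA-treated clone (0.0613 to 0.152). With normexp background correction the differences were -1.51 untreated and -1.41 with RA, and neither was called (adjusted p = 0.122 and 0.0762). With quantile normalization the RA difference was -4.74 (adjusted p = 0.0012). Without the filter on dim probes both calls were lost (limma adjusted p = 0.0734 untreated and 0.087 with RA). With only the groups compared in the fit the RA call was lost (0.117).

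Id1, the fifth target gene, was called in no comparison. It read 2.17 and 2.98 in the clone with RA and 3.84 and 4.01 in the untreated clone, against 2.98 and 2.50 in parental cells with RA and 3.77 and 3.07 in untreated parental cells. RA minus untreated was -1.35 ± 0.40 in the clone (adjusted p = 0.109) and -0.68 ± 0.40 in the parental line (adjusted p = 0.53). The RA arrays lay below the untreated arrays in each line.

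**Figure D4:**
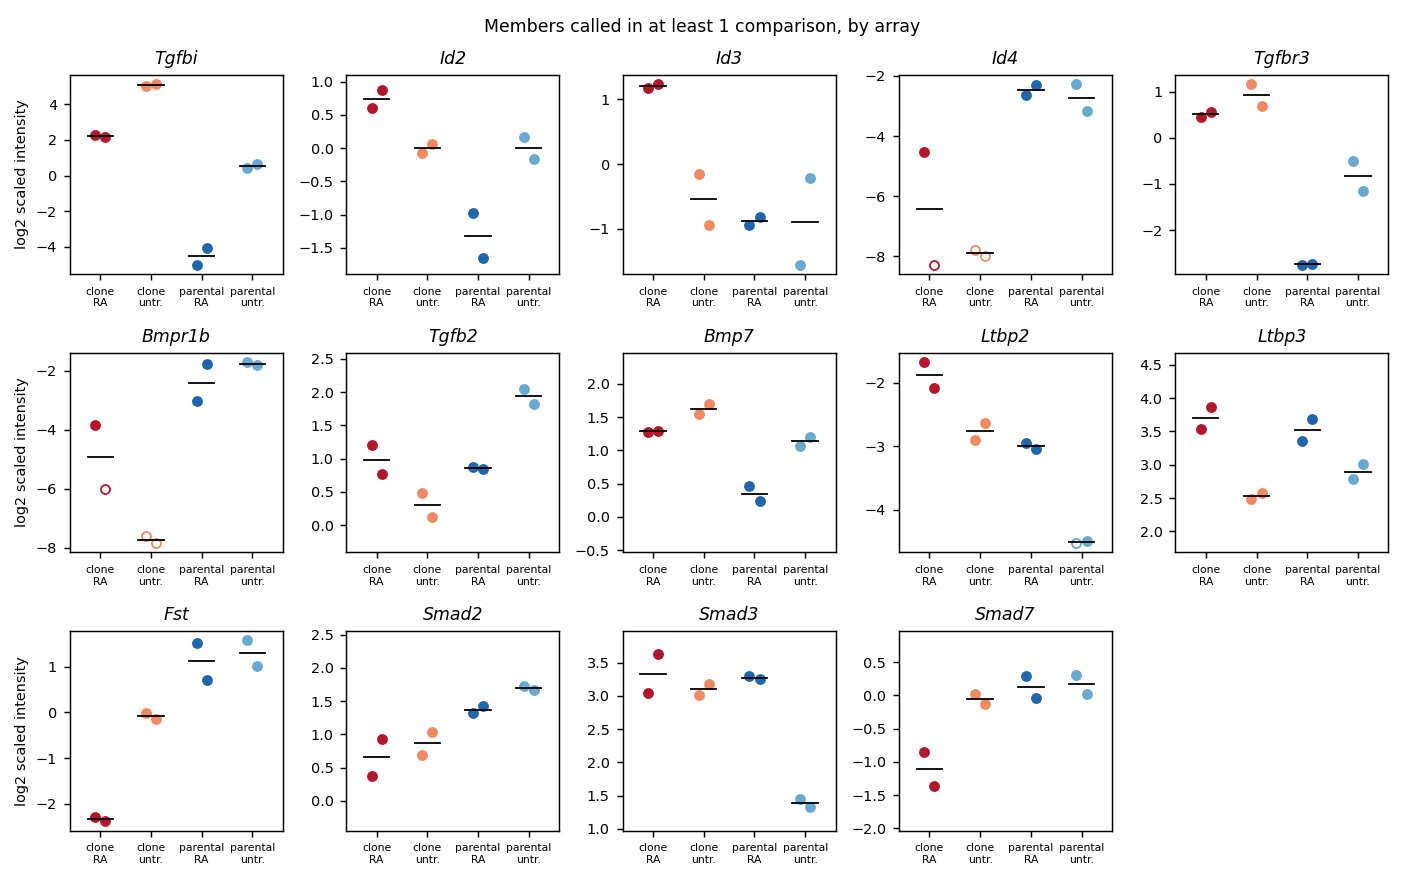
Scaled log2 level on each array (points, 2 per group) and group mean (bar) of the 14 genes called in at least 1 comparison, with the groups from left to right clone with RA, clone untreated, parental with RA and parental untreated, and each panel on its own scale. Hollow points mark arrays on which the gene was not well above background, as for Id4 and Bmpr1b on 3 of the 4 clone arrays each.

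Among the receptors, 9 of 10 were tested, and Tgfbr3 and Bmpr1b differed between the lines in opposite directions. These 2 of 9 make 22.2% in each line comparison, against 23.2% of all features with RA and 9.82% untreated. Tgfbr3, or betaglycan, a co-receptor that presents TGF-beta2 to the signalling receptors, read 0.46 and 0.56 in the clone with RA and 1.17 and 0.70 in the untreated clone, against -2.76 and -2.73 in parental cells with RA and -0.50 and -1.15 in untreated parental cells. All clone arrays were above all parental arrays. It was higher in the clone by 3.25 ± 0.33 with RA (9.53-fold, adjusted p = 0.000883), which held without any 1 array (3.20 to 3.30) and was 2.60 with normexp correction (adjusted p = 0.00222), and by 1.76 ± 0.33 untreated (3.38-fold, adjusted p = 0.0177). The untreated call was lost without untreated clone replicate 1 (adjusted p = 0.125) or 2 (0.0725) or untreated parental replicate 2 (0.109). RA minus untreated was -0.42 ± 0.33 in the clone (adjusted p = 0.499) and -1.92 ± 0.33 in the parental line (adjusted p = 0.0519), neither of them called.

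Bmpr1b, a type I BMP receptor, was lower in the clone. It read -3.82 and -6.01 in the clone with RA and -7.60 and -7.84 in the untreated clone, against -3.03 and -1.79 in parental cells with RA and -1.70 and -1.81 in untreated parental cells. The lines did not overlap in either treatment, and on the clone side it was well above background on clone RA replicate 1 alone. In untreated cells it was 34.5-fold lower in the clone when the clone was set at the lowest signals above background. The fitted difference was -5.97 ± 0.72 (adjusted p = 0.00322), a call that held without any 1 array (-6.09 to -5.84). The fold is on the background-subtracted scale and is not a lower bound, and with normexp correction the difference was -2.22 (adjusted p = 0.0362). With RA the difference was -2.50 ± 0.72 (adjusted p = 0.0458), with -0.79 and -4.22 on the left and right side of the slide. It was -3.60 without clone RA replicate 1 (adjusted p = 0.00376) and -1.41 without clone RA replicate 2 (adjusted p = 0.0844). That call was lost without each array in turn other than clone RA replicate 1 (0.0697 to 0.209) and with a block for slide side (0.0538). The RA difference was -1.74 with normexp correction, -3.32 with quantile normalization and -3.49 with the mean of both probes (adjusted p = 0.0441, 0.00263 and 0.0114). The call was lost without the filter on dim probes (limma adjusted p = 0.102) and with only the groups compared in the fit (0.14). A second probe for Bmpr1b was well above background on all 4 parental arrays and on 0 of the 4 clone arrays. Within the clone the fitted RA minus untreated difference of the tested probe was 2.81 ± 0.72 and was not called (adjusted p = 0.0792). Only clone RA replicate 1 was above background there, so the size of this difference is not set.

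The other tested receptors were Tgfbr1, the type I receptor for TGF-beta, Bmpr1a and Bmpr2 for BMPs, and Acvr1, Acvr1b, Acvr2a and Acvr2b for activins and some BMPs. None was called in any comparison. Acvr2a came closest, at 0.08 and 0.83 in the clone with RA against -0.74 and -0.49 in parental cells with RA, a difference of 1.06 ± 0.33 (adjusted p = 0.0608). Tgfbr2, the type II receptor for TGF-beta, was not tested, since its brighter probe was above background only on clone RA replicate 1. That probe read -3.79 there and -8.03 to -6.33 on the other 7 arrays.

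Of 10 ligands 5 were tested, and 1 of 5 (20%) was called in each line comparison, Bmp7 with RA and Tgfb2 untreated, against 23.2% and 9.82% of all features. Tgfb2 read 1.20 and 0.77 in the clone with RA and 0.48 and 0.13 in the untreated clone, against 0.88 and 0.84 in parental cells with RA and 2.05 and 1.82 in untreated parental cells. The lines were apart only without RA. The clone was lower by 1.63 ± 0.29 in untreated cells (log2 difference -1.63, 3.11-fold, adjusted p = 0.0154), and a second probe gave -1.55. This call was lost without any 1 of the 4 untreated arrays (adjusted p = 0.0661 to 0.13). With RA the line difference was 0.12 ± 0.29 (adjusted p = 0.79), and RA minus untreated was 0.68 ± 0.29 in the clone and -1.08 ± 0.29 in parental cells, neither called (adjusted p = 0.237 and 0.147).

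Bmp7 encodes a BMP that signals through Smad1, Smad5 and Smad9. It read 1.28 and 1.29 in the clone with RA and 1.54 and 1.70 in the untreated clone, against 0.47 and 0.23 in parental cells with RA and 1.07 and 1.20 in untreated parental cells. The clone arrays lay above the parental arrays in both treatments. With RA the clone was higher by 0.94 ± 0.26 (1.92-fold, adjusted p = 0.0399), a call lost when any 1 of the 8 arrays was left out (0.0617 to 0.12) and with a block for slide side (0.0554). The untreated difference was 0.48 ± 0.26 (adjusted p = 0.316).

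Bmp4, which acts in sympathetic neuron specification, was above background on 2 arrays, 1 of each clone group, and on no parental array. It read -4.35 and -6.18 in the clone with RA and -5.65 and -5.35 in the untreated clone, against -7.37 and -6.86 in parental cells with RA and -5.44 and -5.89 in untreated parental cells. With RA the fitted line difference was 1.85 ± 0.58, which was not called (adjusted p = 0.0609). Of the RA-treated arrays only clone RA replicate 1 was above background. A second Bmp4 probe, above background on no array, gave 0.22. Tgfb1 and Tgfb3 were tested and called in no comparison. Bmp2, Bmp6 and Inhba were above background on no array, and Bmp5 and Inhbb only on clone RA replicate 1.

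Of the 4 latent TGF-beta binding proteins, which build into the extracellular matrix, 3 were tested. Ltbp2, a matrix protein of this family, read -1.67 and -2.08 in the clone with RA and -2.90 and -2.63 in the untreated clone, against -2.96 and -3.05 in parental cells with RA and -4.53 and -4.50 in untreated parental cells. The lines did not overlap in either treatment, and in each line the RA arrays were above the untreated arrays. The clone was higher by 1.12 ± 0.28 with RA (2.18-fold, adjusted p = 0.0281) and by 1.75 ± 0.28 untreated (3.36-fold, adjusted p = 0.00963). The RA call was lost without any 1 array other than clone RA replicate 2 (0.0553 to 0.125), and the untreated call without any 1 untreated array (0.0552 to 0.0955). Averaged over both lines Ltbp2 was higher with RA by 1.20 ± 0.20 (adjusted p = 0.0236). With normexp background correction the line differences were 0.73 with RA and 0.42 untreated, neither called (adjusted p = 0.301 and 0.792). The RA average was then 0.48 (0.552), and the line average was 0.58 (0.228) against 1.44 before, so neither average was called.

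Ltbp3, which binds latent TGF-beta inside the cell and aids its secretion, read 3.54 and 3.88 in the clone with RA and 2.49 and 2.58 in the untreated clone, against 3.35 and 3.69 in parental cells with RA and 2.78 and 3.01 in untreated parental cells. The lines overlapped with RA, while within each line the RA arrays lay above the untreated ones. It was called higher with RA only on average over the lines, by 0.89 ± 0.20 (adjusted p = 0.0496), and this was lost without any 1 array (0.0635 to 0.18) and with a block for slide side (0.0512). Its second probe gave 1.30 in the clone and 0.92 in parental cells for RA minus untreated, against 1.17 and 0.62 for the first. Ltbp4 was called in no comparison, and Ltbp1 was above background only on clone RA replicate 1.

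Follistatin, encoded by Fst, is a secreted protein that binds and blocks activins. Fst read -2.30 and -2.39 in the clone with RA and -0.02 and -0.14 in the untreated clone, against 1.53 and 0.71 in parental cells with RA and 1.58 and 1.02 in untreated parental cells. All clone arrays lay below all parental arrays, with the RA-treated clone lowest. With RA the clone was lower than the parental line by 11.0-fold (log2 difference -3.46 ± 0.36, adjusted p = 0.00107), and the call held without any 1 array (-3.87 to -3.05). The untreated line difference was -1.38 ± 0.36 (adjusted p = 0.0608). Within the clone Fst fell with RA by 4.80-fold (log2 difference -2.26 ± 0.36, adjusted p = 0.0258), and RA minus untreated in the parental line was -0.18 ± 0.36 (adjusted p = 0.891). The RA call in the clone was lost without either untreated clone array (0.155 and 0.182), clone RA replicate 1 (0.0579) or either untreated parental array (0.0534). The interaction was -2.08 ± 0.51 and was not called (adjusted p = 0.152). Nog and Chrd, which encode the BMP antagonists noggin and chordin, were tested and called in no comparison, and Grem1, for gremlin, was above background on no array.

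All 8 Smads were tested. In each line comparison 1 of 8 (12.5%) was called, Smad7 with RA and Smad3 untreated, against 23.2% and 9.82% of all features, and 3 of 8 (37.5%) in the line average, against 27.7%. Smad3, a signal transducer of TGF-beta and activin, read 3.04 and 3.63 in the clone with RA and 3.02 and 3.18 in the untreated clone, against 3.29 and 3.26 in parental cells with RA and 1.45 and 1.32 in untreated parental cells. The untreated parental arrays stood alone at the low end. Without RA the clone was higher by 1.71 ± 0.30 (3.28-fold, adjusted p = 0.0134), lost without any 1 untreated array (0.0767 to 0.113), and with RA the line difference was 0.06 ± 0.30 (adjusted p = 0.908). RA minus untreated was 0.23 ± 0.30 in the clone (adjusted p = 0.695), and in the parental line Smad3 rose by 1.89 ± 0.30 (3.70-fold, adjusted p = 0.042). That RA call was lost without any 1 array other than the RA-treated clone arrays (0.118 to 0.243) and with a block for slide side (0.0556). A second Smad3 probe was well above background on all 4 clone arrays and on 2 of the 4 parental arrays. Its line difference was 1.42 untreated and 0.01 with RA, and its RA minus untreated difference was 2.12 in parental cells and 0.70 in the clone. The interaction for Smad3 was -1.66 ± 0.42 and was not called (adjusted p = 0.159).

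Smad7, an inhibitory Smad, read -0.85 and -1.36 in the clone with RA and 0.02 and -0.13 in the untreated clone, against 0.29 and -0.05 in parental cells with RA and 0.30 and 0.03 in untreated parental cells. The RA-treated clone arrays were the lowest and the other groups overlapped or nearly so. With RA the clone was lower by 2.34-fold (log2 difference -1.23 ± 0.31, adjusted p = 0.029), lost without any 1 array other than clone RA replicate 1 (0.0518 to 0.106). Smad2 read 0.38 and 0.93 in the clone with RA and 0.70 and 1.03 in the untreated clone, against 1.32 and 1.42 in parental cells with RA and 1.73 and 1.67 in untreated parental cells. Every clone array was below every parental array. Its difference was called only as the average over treatments, -0.78 ± 0.21 (adjusted p = 0.0336).

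Smad1, Smad4, Smad5, Smad6 and Smad9 were called in no comparison. Nor were Ski and Skil, co-repressors that bind Smad complexes. Smad9, which transduces BMP signals, came closest in untreated cells and for RA in the parental line. It averaged -2.09 ± 0.12 in the clone with RA and -1.50 ± 0.44 in the untreated clone, against -1.72 ± 0.27 in parental cells with RA and -0.49 ± 0.10 in untreated parental cells (SD, n = 2 each). The line difference without RA was -1.01 ± 0.32 (adjusted p = 0.102) and RA minus untreated in the parental line was -1.23 ± 0.32 (adjusted p = 0.132). The probes of Smad5 disagreed on the line difference, at 0.68 and -1.10 with RA and 0.34 and -0.36 untreated, and those of Smad4 gave -0.69 and -0.28 with RA and -0.64 and 0.09 untreated.

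In all, 21 of the 35 tested genes were called in no comparison. Leaving out Bmp4, which no parental array measured above background, the line difference with RA ran from -0.93 for Tgfb1 to 1.06 for Acvr2a, and untreated from -1.01 for Smad9 to 1.11 for Nog. RA minus untreated ran from -1.35 for Id1 to 1.21 for Acvr1b in the clone, and from -1.27 for Smad6 to 1.26 for Acvr1b in the parental line. These values do not show that the genes did not differ.

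The interaction, RA minus untreated in the clone minus the same in the parental line, was tested although it cannot be told apart from slide row. None of the 35 genes was called by limma, with 8 at an unadjusted p under 0.05, where 0.206% of all features were called (0.122% positive, 0.0838% negative). The smallest adjusted p was 0.128, for Id2, with an interaction of 2.06 ± 0.46. The genes called in a single line under RA therefore cannot be said to respond in that line alone.

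A further 80 genes of the pathway, such as distant ligands, co-receptors, proteases and ubiquitin ligases, were on the array and 61 were tested. With RA, 22 differed between the lines (8 higher and 14 lower in the clone), which is 36.1% against 23.2% of all features. The 6 with the smallest adjusted p were Bmper, which encodes a BMP-binding protein (3.01 ± 0.30, adjusted p = 0.000905), Nrros, which tethers latent TGF-beta on macrophages and microglia (-2.46 ± 0.27, 0.00122), the stress-induced ligand Gdf15 (-3.11 ± 0.37, 0.00166), the fibrillin gene Fbn1 (-3.23 ± 0.41, 0.00214), the oocyte ligand Gdf9 (-2.55 ± 0.34, 0.00269) and the BMP antagonist gene Nbl1 (1.89 ± 0.29, 0.00436). These 6 calls held without any 1 array, while 15 of the 22 were lost without at least 1 array. Bmper read -0.10 and 0.31 in the clone with RA and -1.12 and -0.59 in the untreated clone, against -2.94 and -2.87 in parental cells with RA and -1.69 and -1.78 in untreated parental cells.

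In untreated cells 6 of the 61 were called (9.84%, against 9.82% of all features). Fstl3, a follistatin relative, was higher in the clone (1.33 ± 0.30, adjusted p = 0.0366). Thbs1, an activator of latent TGF-beta, was also higher (fitted difference 2.64, adjusted p = 0.0346), by 2.69-fold with parental cells set at the lowest signals above background. Thbs1 was above background on 2 untreated clone arrays, 1 RA-treated clone array and 0 parental arrays. It thus passed the filter only through the clone, the line in which it was called higher. Nrros (-1.97 ± 0.27, 0.00529), Fbn1 (-2.11 ± 0.41, 0.0203), the Smad co-repressor Tgif2 (-2.19 ± 0.49, 0.0346) and Lemd3, an inner nuclear membrane protein that binds Smads (-2.01 ± 0.50, 0.04999), were lower. Each of these 6 calls was lost without at least 2 of the untreated arrays. With RA in the clone 3 of 61 were called (4.92%, against 4.63% of all features). Inha, the inhibin alpha subunit, rose by 2.09 ± 0.29 (adjusted p = 0.021) and Nbl1 by 1.54 ± 0.29 (0.0348), and Gdf15 fell by 2.20 ± 0.37 (0.0282). These 3 calls were each lost without 5 or 7 of the 8 arrays. With RA in the parental line limma called none of the 61, with 12 at an unadjusted p under 0.05. Averaged over both lines, Inha (1.86 ± 0.20, 0.0105) and Tgfbrap1 (0.90 ± 0.19, 0.0448) were higher with RA and Fstl3 (-1.17 ± 0.21, 0.0299) and Nrros (-0.91 ± 0.19, 0.0417) lower, and each call was lost without 4 to 8 arrays.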

How the data were processed

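Total RNA of 8 cell samples was hybridised to one-colour Cy3 Agilent mouse arrays of design 028005, with 2 arrays in each of 4 groups taken from the sample titles. Per the file headers, Agilent Feature Extraction 10.7.3.1 made the deposited intensity values by subtracting background and removing spatial trends, with no scaling between arrays. The series table's deposited log2 values were checked against the scanner tables, equalled log2 of that intensity minus a constant per array, and served as an alternative.

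Here log2 intensity minus the array's 75th percentile over non-control spots was used. Control spots and spots that the scanner software marked as outliers were left out, and spots of a probe were averaged. A probe was kept if 2 or more of the 8 arrays had it well above background, and the brightest represented each gene, which gave 26262 features, 15183 of them with a symbol through RefSeq accessions. Using limma 3.58.1 under R 4.3.3, 1 model with group means was fitted to the 8 arrays (4 residual and 3 prior degrees of freedom), with Benjamini-Hochberg adjustment over all features and calls at an adjusted p under 0.05. The scripts were tested on simulated data.

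Where no array of the dimmer group was above background, folds set the brighter group's mean against the lowest signals well above background. These folds are not lower bounds, since signals not well above background can read higher than those lowest signals. The number of arrays limits the precision.

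The genes and lists were chosen with earlier results of these data known. Full values were given for genes called in any of the 7 comparisons or among the 3 largest differences of a comparison between groups, and up to 6 further pathway genes per comparison with the smallest adjusted p were named. Acvr2a, Smad9 and the second probes were named after their values were seen.

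Alternatives were normexp background correction on the median spot signal, since the tables hold no mean, quantile normalization, the series table, other filters, averaged probes per gene, a trended robust variance, a block for slide side, a fit of only the groups compared, and each array left out.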

Additional observations from a re-analysis of the deposited data

How the results depend on the processing

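Of 651 recalculations of the 40 gene-level calls under the alternatives, 447 kept the call, 204 lost it and 0 changed direction. Without 1 array in turn, 12 of the 40 calls were kept throughout, and 11 also held under every other alternative. The number of called pathway genes, main value first, was 7 for clone against parental untreated (2 to 7 with an array left out), 10 for clone against parental with RA (4 to 9), 2 for RA in the clone (0 to 6), 2 for RA in the parental line (0 to 4), 13 for the line average (6 to 13), 6 for the RA average (0 to 8) and 0 for the interaction (0 to 3). Without the filter on dim probes the counts were 4, 4, 0 (10 at an unadjusted p under 0.05 by limma), 1, 7 and 1 for the first 6 of these. Normexp background correction gave 1 for RA in the parental line, 8 for the line average and 1 for the RA average. With only the groups compared in the fit the counts were 5 for clone against parental with RA, 0 for RA in the clone (11 at an unadjusted p under 0.05) and 1 for RA in the parental line. A block for slide side gave 1 for RA in the parental line, 8 for clone against parental with RA, 8 untreated and 5 for the RA average. A trended robust variance gave 1 for the interaction and 6 for RA in the clone, and probes above background on all 8 arrays gave 4 for RA in the clone.

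Quantile normalization called 1 gene higher and 2 lower with RA in the clone, against 0 higher and 2 lower. It placed the median of all features at -0.14 (against 0.11) for clone against parental with RA and at -0.14 (against 0.02) for RA in the clone, and normexp correction placed it at -0.19 (against 0.11) for the untreated lines. Over all features, and leaving aside the fits without 1 array, the counts called ranged from 1213 to 3354 for the untreated lines, against 2578, and from 2628 to 7169 with RA, against 6081. They ranged from 0 to 2173 for RA in the clone, against 1216, and from 17 to 803 for RA in the parental line, against 294. With 1 array left out as well, the ranges over all alternatives were 785 to 3354, 2628 to 7285, 0 to 3045 and 0 to 803. Of the 21 called differences within a line or treatment, 21 kept their sign on each side of the slide. They were called on these same arrays, which makes an equal sign likely beforehand, so this is no separate support. The labels give no replicate number shared between groups, so arrays were paired only by slide side, through the block above.

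Dim genes are limited by signal over background, and the values of Id4, Bmpr1b, Bmp4 and the untested genes on clone RA replicate 1 stood above those of its partner array. This was not limited to these genes. The median deposited log2 value over all probes was -2.90 on that array, against -4.45 to -4.23 on the other arrays. The cause was not tested. Within a line or a treatment, and in the interaction, slide row and group cannot be told apart.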
